A study of Mus musculus with 17 samples.

Results

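Egr1, Egr2, Egr3 and Egr4 are the 4 early growth response genes, and each was measured by 1 probe among 19949 on Illumina bead arrays of cultured mouse neural precursor cells. The probes were chosen by gene symbol alone, from the platform annotation, and make up 4 of 19854 features with 1 probe a gene. The cells came from adult hippocampus and were grown in Neurobasal medium with B27, GlutaMAX, EGF and bFGF (epidermal and basic fibroblast growth factor). Both factors were then withdrawn, and RNA was taken once at each of 17 times, from the proliferating culture at 0 min to 720 min. No time had a parallel culture left in growth factors, and the labels give the donor animals only as adult mice.

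EGR proteins are zinc finger transcription factors that bind GC-rich sites and are induced within minutes by growth factors. ERK, switched on by EGF and FGF receptors, phosphorylates partners of serum response factor (SRF), which sits on CArG boxes in EGR promoters, and the resulting transcripts are short-lived. The corepressors Nab1 and Nab2 bind an inhibitory domain of Egr1, Egr2 and Egr3 that Egr4 lacks. Egr1 is also known as Zif268 and is used as a marker of neuronal activity in the hippocampus.

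Promoter sequences of Egr2 and Egr4 are shown beside those of 2 genes of their circuit, Srf and Nab1, so that the sites each holds can be compared. The lines give 250 bases before to 50 bases after a transcript start, 5′ to 3′ on the gene's own strand, from RefSeq on GRCm38.p6. Capitals mark CArG boxes, CArG boxes with 1 base of their A and T core changed to G or C, the letters TGACG, which are part of a cyclic AMP response element, and GCGTGGGCG or GCGGGGGCG, which EGR proteins bind. A CArG box is CC, then 6 bases of A or T, then GG. All were searched on both strands and so can appear as the reverse complement.
Egr2, chr10:67537619-67537918, plus strand: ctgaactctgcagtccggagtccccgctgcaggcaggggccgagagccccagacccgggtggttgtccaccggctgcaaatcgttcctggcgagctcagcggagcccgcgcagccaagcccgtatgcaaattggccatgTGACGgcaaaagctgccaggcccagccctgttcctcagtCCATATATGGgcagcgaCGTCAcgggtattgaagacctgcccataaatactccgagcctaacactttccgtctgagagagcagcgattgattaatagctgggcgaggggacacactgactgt
Egr4, chr6:85513540-85513839, minus strand: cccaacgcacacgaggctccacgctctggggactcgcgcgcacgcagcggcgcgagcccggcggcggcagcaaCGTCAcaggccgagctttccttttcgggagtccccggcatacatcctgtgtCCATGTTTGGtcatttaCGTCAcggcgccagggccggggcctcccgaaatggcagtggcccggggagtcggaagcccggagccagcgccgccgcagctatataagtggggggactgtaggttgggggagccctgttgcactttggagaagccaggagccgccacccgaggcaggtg
Srf, chr17:46556113-46556412, minus strand: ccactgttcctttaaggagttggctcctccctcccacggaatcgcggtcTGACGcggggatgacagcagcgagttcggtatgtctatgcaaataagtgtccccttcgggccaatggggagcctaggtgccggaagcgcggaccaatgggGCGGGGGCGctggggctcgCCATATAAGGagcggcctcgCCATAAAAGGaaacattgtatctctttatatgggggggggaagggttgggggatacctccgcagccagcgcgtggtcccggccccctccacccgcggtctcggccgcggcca
Nab1, chr1:52500399-52500698, minus strand: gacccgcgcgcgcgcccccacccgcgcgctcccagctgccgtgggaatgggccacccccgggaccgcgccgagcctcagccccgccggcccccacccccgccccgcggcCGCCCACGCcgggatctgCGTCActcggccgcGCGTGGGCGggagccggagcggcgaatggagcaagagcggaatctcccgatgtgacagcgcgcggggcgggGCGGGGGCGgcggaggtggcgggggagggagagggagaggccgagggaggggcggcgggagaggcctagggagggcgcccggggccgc
The Egr2 window held 1 CArG box, which began 72 bases before the start, with TGACG on either side of it at 111 and 55 bases. The Egr4 window held no perfect CArG box but 1 with a changed core base, at 126 bases, and TGACG at 177 and 109 bases. Srf had 2 CArG boxes at 82 and 62 bases and 1 EGR site at 101 bases, and Nab1 had 3 EGR sites at 141, 109 and 38 bases. No marked motif overlapped another. Of 32851 promoter windows of this length, 1.63% held a CArG box, 8.50% one with a changed core base, 20.8% TGACG and 3.47% an EGR site. The Egr2 window shown is 1 of 5 in the table and was chosen after its motifs were seen, and 4 of the 5 held a CArG box. Some of these 5 windows overlap and hold the same box, so they are not separate cases. The window of Nab2, the other corepressor, held 0 of these motifs. A match of letters is a description and not a binding site.

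The 17 arrays were grouped into windows of 0 to 45 min (4 arrays), 60 to 120 min (3), 150 to 240 min (3), 300 to 420 min (3) and 480 to 720 min (4). Neighbouring times stood in for replicates, so a p-value measures the spread within windows of 1 series of arrays and not the spread between cultures. Array medians lay between 6.40 and 6.42 on the log2 scale, neighbouring arrays correlated at 0.990 to 0.994 over the 9940 features above the filter, and no array stood apart. Of 9 neural stem and progenitor markers on the array, 7 lay above the filter of 6.41, with Vim at 12.94 to 13.55 and Nes at 10.85 to 11.98 over the series. All 7 microglia and macrophage markers and all 4 fibroblast markers lay below it. The summed linear signal of 5 astrocyte markers was 748 to 1147 over 480 to 720 min, against 412 to 444 over 0 to 45 min. Of the 4 above the filter, limma called Gfap and S100b higher between these windows and Slc1a2 lower, where 26.8% of all features rose and 25.9% fell. For 6 neuron markers, of which 1 lay above the filter, the sum was 7126 to 9358, against 6540 to 7373. The sum of 6 oligodendrocyte markers was 24820 to 30646, against 27203 to 28642, with 19793 to 23291 over 150 to 240 min. The part of these markers in the EGR results was not tested, and in bulk RNA fewer cells with a transcript and less of it per cell cannot be told apart.

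Egr1, Egr2 and Egr4 fell after growth factor withdrawal and ended below their starting signal, while Egr3 stayed near the middle of all probes throughout. Egr1 fell 12.3-fold over 60 to 120 min, regained part of its level and was still 3.12-fold lower over 480 to 720 min. Egr2 fell 2.02-fold, also regained part and was 1.72-fold lower over 480 to 720 min. Egr4 fell 2.98-fold and was 3.82-fold lower over 480 to 720 min. End levels were not tested between the genes. Over the whole time course 3 of the 4 genes changed by limma's spline test (adjusted p = 0.000375 for Egr1, 3.1e-08 for Egr2 and 4.2e-10 for Egr4), where 61.9% of all 9940 features did.

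**Figure D1:**
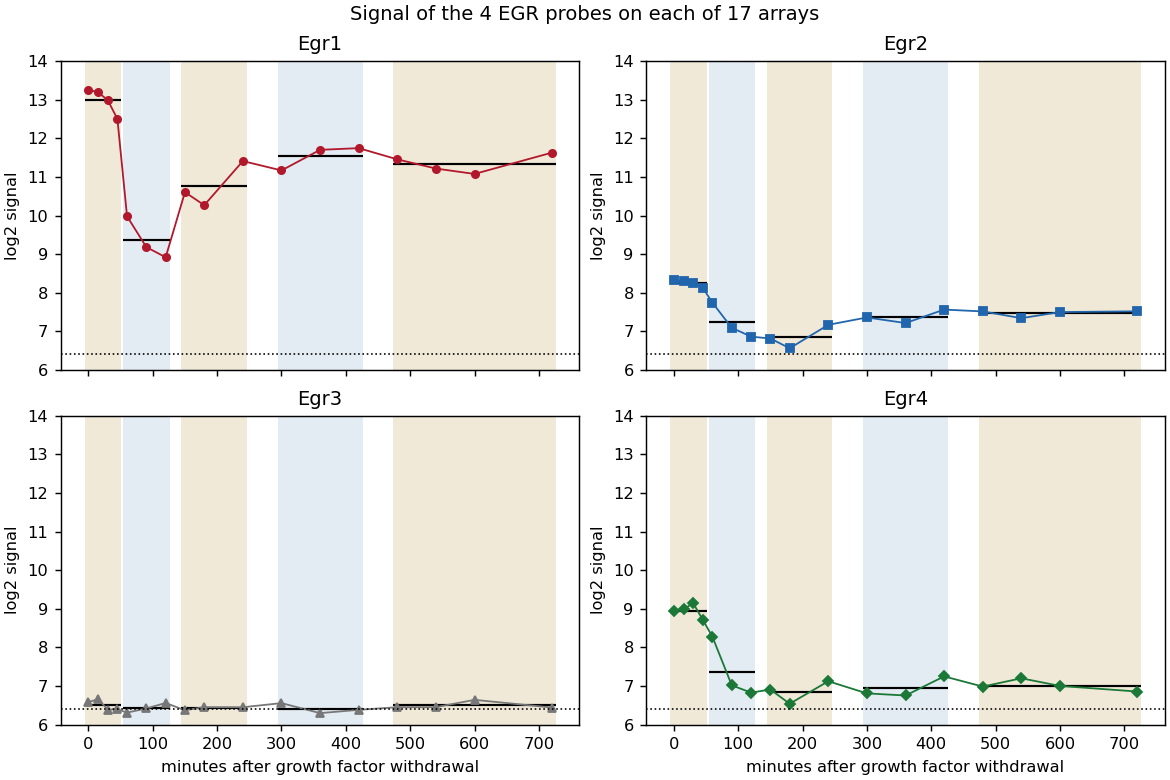
Log2 signal (y axis) of each EGR probe against minutes after growth factor withdrawal (x axis), with 1 point per array, shading for the 5 windows, black bars for window means and a dotted line at the filter value of 6.41. Egr1 runs from 13.26 through a low of 8.92 to 11.63, Egr2 and Egr4 reach lows of 6.57 and 6.54 at 180 min, and Egr3 lies between 6.30 and 6.66.

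Egr1 moved first. Its log2 signal was at 13.26, 13.19, 12.99 and 12.50 at 0, 15, 30 and 45 min. At 60, 90 and 120 min it was at 9.98, 9.18 and 8.92. No array of the later window reached the lowest of the earlier one. The step of -2.52 from 45 to 60 min was the largest downward step of that interval among all 9940 features. At 120 min the linear signal was 5.86% of its 0 to 45 min mean. Window means were 9.36 ± 0.55 over 60 to 120 min (SD, n = 3 times), against 12.99 ± 0.34 over 0 to 45 min (n = 4). The change of -3.62 (SE 0.25, limma adjusted p = 7.3e-09) had the smallest p of all features and was 2nd in size, after Dusp6, the phosphatase that switches off ERK.

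The return of Egr1 was abrupt. It was at 10.61, 10.27 and 11.41 at 150, 180 and 240 min. The step of 1.68 from 120 to 150 min was the largest upward step of that interval among 9940 features. At 300, 360 and 420 min Egr1 was at 11.17, 11.70 and 11.75, and at 480, 540, 600 and 720 min at 11.46, 11.22, 11.08 and 11.63. Every array from 240 min on lay above every array from 60 to 180 min and below every array from 0 to 45 min.

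Egr2, known as Krox20 and needed for hindbrain patterning and Schwann cell myelination, declined more slowly. It was at 8.33, 8.29, 8.25 and 8.13 from 0 to 45 min and at 7.74, 7.09 and 6.87 at 60, 90 and 120 min. At 150, 180 and 240 min it was at 6.82, 6.57 and 7.17. Its lowest array was at 180 min, 1 h after the low of Egr1, and the linear signal there was 31.0% of the 0 to 45 min mean. Egr2 was then at 7.36, 7.22 and 7.57 from 300 to 420 min and at 7.52, 7.34, 7.50 and 7.52 from 480 to 720 min. These late arrays lay between those of 0 to 45 min and those of 150 to 240 min and overlapped with neither. The change over 60 to 120 min was -1.02 (SE 0.16, limma adjusted p = 0.00069).

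Egr4, a family member that acts in the male germ line and in neurons, was at 8.94, 8.99, 9.15 and 8.72 from 0 to 45 min. At 60, 90 and 120 min it was at 8.27, 7.02 and 6.83. Its steepest step, -1.25, came from 60 to 90 min and was 2nd among 9940 features in that interval, after the time at which Egr1 had made most of its fall. At 150, 180 and 240 min Egr4 was at 6.91, 6.54 and 7.13, at 300, 360 and 420 min at 6.81, 6.76 and 7.25, and at 480, 540, 600 and 720 min at 6.99, 7.20, 7.00 and 6.86. From 90 min on all 12 arrays lay within 6.54 to 7.25, below every earlier array. The change over 60 to 120 min was -1.57 (SE 0.23, limma adjusted p = 0.000304). Signals of Egr2 and Egr4 at their lows ranked at percentiles 53.1 and 52.6 of the probes on that array, close to the filter, so the part of background signal in these folds was not tested.

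Egr3, which is needed for muscle spindle development, was at 6.59, 6.66, 6.39 and 6.40 from 0 to 45 min and at 6.31, 6.42 and 6.56 at 60, 90 and 120 min. It was at 6.37, 6.45 and 6.45 at 150, 180 and 240 min, at 6.56, 6.30 and 6.39 at 300, 360 and 420 min, and at 6.45, 6.45, 6.64 and 6.45 from 480 to 720 min. All 17 arrays lay between 6.30 and 6.66, at percentiles 46.8 to 54.8 of the probes on their array. No detection p-value came with the table, so Egr3 cannot be separated from background. The change over 60 to 120 min was -0.08, with a 95% interval of -0.29 to 0.13, and over 480 to 720 min it was -0.01 (-0.21 to 0.19).

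**Figure D2:**
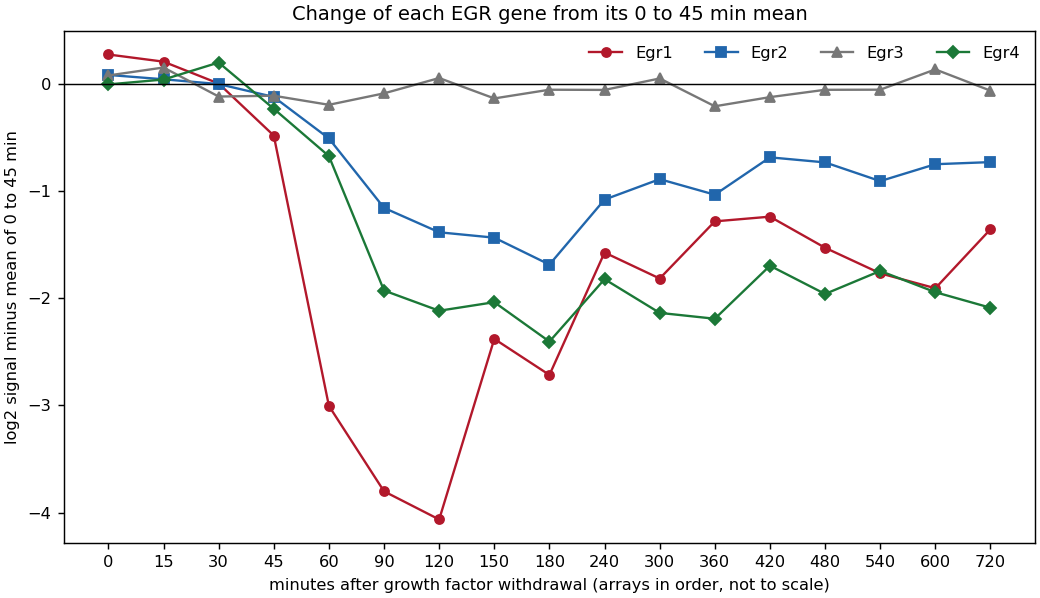
Log2 signal of each EGR gene minus its own mean over 0 to 45 min (y axis) on the 17 arrays in time order (x axis, not to scale). Egr1 drops by 3.00 at 60 min, when Egr2 and Egr4 are still above -0.70, and then climbs back past Egr4 at 240 min, while Egr3 stays within 0.21 of its start.

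Speed was read as the time at which the straight line between neighbouring arrays crossed the midpoint between the 0 to 45 min mean and the lowest array. This midpoint came at 54.2 min for Egr1, 72.6 min for Egr4 and 75.4 min for Egr2. Without the array at 60 min the Egr1 time was 66.0 min. With each array left out in turn, the Egr4 time was 70.08 to 81.95 min and the Egr2 time 69.63 to 82.86 min. The size of the lead of Egr1 therefore depends largely on the 60 min array. On the linear scale the times of Egr1, Egr4 and Egr2 were 49.5, 62.4 and 65.5 min, in the same order. The gap between Egr4 and Egr2 is far smaller than the 30 min between the arrays around it. Egr3 never departed by 1 log2 unit and has no such time.

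Low points differed too. Egr1 was lowest at 120 min, and Egr2 and Egr4 at 180 min. All 3 genes were lower at 180 min than at 150 and 240 min. Without the 180 min array Egr2 was lowest at 150 min and Egr4 at 360 min. By the late window Egr1 had regained 59.6% ± 6.0 of its fall on the log2 scale (SD, n = 4 times), Egr2 53.7% ± 5.1 and Egr4 19.5% ± 5.9. On the linear scale the shares were 27.5% ± 5.7 for Egr1, 39.4% ± 4.9 for Egr2 and 9.02% ± 3.2 for Egr4, so the order of Egr1 and Egr2 depends on the scale. Without the 180 min array, which sets the lows of Egr2 and Egr4, the log2 share was 11.7% for Egr4 and 45.6% for Egr2. Linear signal over 480 to 720 min was 31.8% of the 0 to 45 min mean for Egr1, 58.2% for Egr2 and 26.1% for Egr4, against 99.1% for Egr3.

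The first step, 60 to 120 min against 0 to 45 min, was the one in which most of the fall took place. Of the 4 EGR genes 3 fell, where 0.986% of all features fell. The arrays of these 3 genes did not overlap between the windows, and 7.42% of features were lower without overlap. Egr2 and Egr4 ranked 22 and 7 of 9940 by size of fall. Leaving out any 1 array kept all 3 calls, with changes of -3.93 to -3.40 for Egr1, -1.27 to -0.83 for Egr2 and -2.02 to -1.30 for Egr4.

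The second step, 150 to 240 min against 60 to 120 min, separated Egr1 from the others. Egr1 rose by 1.40 (SE 0.26, limma adjusted p = 0.00209), to 10.76 ± 0.59 over 150 to 240 min, against 9.36 ± 0.55 over 60 to 120 min (SD, n = 3 times each), 7th among all features by size of rise. It was the 1 EGR gene of 4 to rise, where 3.21% of features rose. Egr2 was at 6.85 ± 0.30 against 7.23 ± 0.45, and Egr4 at 6.86 ± 0.29 against 7.38 ± 0.78. Neither passed (adjusted p = 0.203 for Egr2 and 0.242 for Egr4), although Egr2 passed without the 120 min array (-0.57, adjusted p = 0.0499).

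Later steps were smaller. Over 300 to 420 min, against 150 to 240 min, Egr2 rose by 0.53 (SE 0.17, limma adjusted p = 0.0467), where 4.71% of features rose. This call was near the threshold and held in 5 of 17 fits that each left out 1 array, with a highest adjusted p of 0.232 without 180 min. Egr1 had a larger difference, 0.78 (SE 0.26), that did not pass (adjusted p = 0.0603), and it passed without the array at 60, 240, 300 or 720 min (0.78, 1.10, 0.96 and 0.78). Egr4 differed by 0.08 (adjusted p = 0.888). In the last step, 480 to 720 min against 300 to 420 min, limma called 0 of 4 EGR genes, where 9.13% of features changed. At an unadjusted p under 0.05 the count was also 0 of 4, where 2404 of 9940 features passed.

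**Figure D3:**
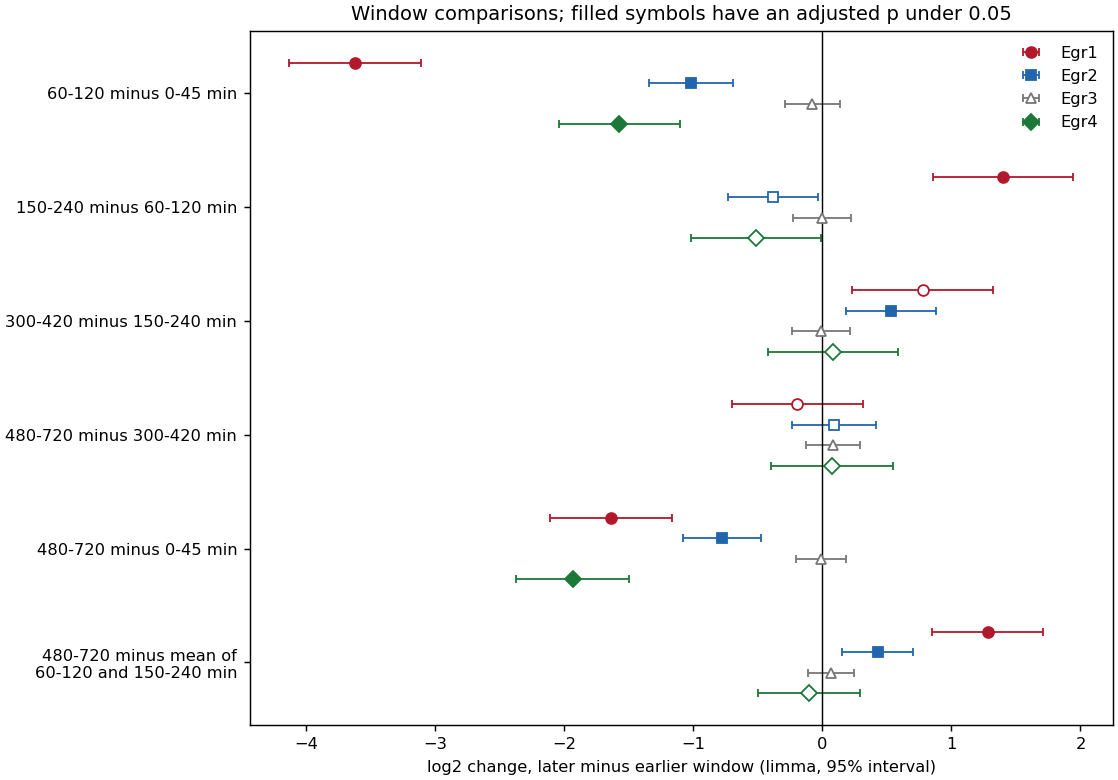
Log2 change (x axis, later minus earlier window, with 95% intervals from limma) of the 4 EGR genes in 6 window comparisons (y axis), with filled symbols where the adjusted p was under 0.05. The first row holds changes of -3.62 for Egr1, -1.57 for Egr4 and -1.02 for Egr2, the second a rise of 1.40 for Egr1 alone among the 4, and in the last row Egr1 and Egr2 lie to the right of 0.

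At the end of the series the 3 genes had not returned. Egr1 was at 11.34 ± 0.25 over 480 to 720 min, against 12.99 ± 0.34 over 0 to 45 min (SD, n = 4 times each), a change of -1.64 (SE 0.23, limma adjusted p = 3.1e-06). Egr2 was at 7.47 ± 0.09 against 8.25 ± 0.09 (-0.78, adjusted p = 0.000119), and Egr4 at 7.01 ± 0.14 against 8.95 ± 0.18 (-1.93, adjusted p = 1.1e-07). So 3 of 4 EGR genes were lower, where 25.9% of all features were, so the count itself says little. Their arrays did not overlap, and 22.5% of features were lower without overlap. With windows of 0 to 60 and 420 to 720 min, which place the low 60 min array in the early group, Egr1 differed by -0.96 and did not pass (adjusted p = 0.0605).

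Regain was tested as 480 to 720 min against the mean of the 60 to 120 and 150 to 240 min windows. That low side also holds the 60 min array, early in the falls of Egr2 and Egr4, and Egr1 arrays after its low. Egr1 rose by 1.28 (SE 0.21, limma adjusted p = 3.0e-05), a 2.43-fold difference. Egr2 rose by 0.43 (SE 0.13, adjusted p = 0.0117), a 1.35-fold difference, with p = 0.0762 in an exact permutation test over arrays. Egr4 differed by -0.10 (95% interval -0.50 to 0.29, adjusted p = 0.69) and by 0.12 without the 60 min array. So 2 of 4 EGR genes rose, where 24.0% of features did. This comparison shares its late arrays with the one before, and the 0 to 45 min arrays serve both falls.

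Whether the genes differed from each other was tested on the difference between 2 members on each array, with 60 to 240 min (6 arrays) against 0 to 45 min (4) for the fall and 480 to 720 min (4) against 60 to 240 min (6) for the regain. The 60 to 240 min side includes the rise of Egr1 by 1.40 over 150 to 240 min. It also includes 60 min, when Egr2 (7.74) and Egr4 (8.27) lay above all their late arrays. Fall and return are therefore mixed in these tests, to a different degree for each gene. These 12 two-sided exact permutation tests can give no p below 0.00952, and p-values were adjusted over all 12. Egr1 fell further than Egr2, with changes of -2.92 and -1.21 on the log2 scale (difference -1.71, adjusted p = 0.019). Egr4 fell further than Egr2, with changes of -1.83 and -1.21 (Egr2 minus Egr4 0.62, adjusted p = 0.019). Egr2 and Egr4 started at 8.25 and 8.95 but had like lows, 6.57 and 6.54, within the 6.30 to 6.66 of Egr3. The part of a shared floor in the differences that involve Egr2 or Egr4 was not tested. The 6 of these 12 tests that set a gene against Egr3 are not read as results, since a probe that cannot be separated from background can show neither a fall nor a regain. Between Egr1 and Egr4 the fall differed by -1.09 and did not pass (adjusted p = 0.0889), and it passed without the 240 min array (-1.36, adjusted p = 0.0212).

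For the regain, Egr2 and Egr4 differed by 0.53 (adjusted p = 0.019), and this held whichever of the 14 arrays was left out. Egr1 and Egr4 differed by 1.39 (adjusted p = 0.0429), a call that was lost without any 1 of the arrays at 60, 90, 120, 150, 180, 480, 540, 600 or 720 min, with a highest adjusted p of 0.0952 and differences of 1.14 to 1.66 over all left-out arrays. Egr1 and Egr2 differed by 0.85 and did not pass (adjusted p = 0.208).

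Likeness of course was described by Pearson's r over the 17 arrays, which share 1 time series, so any genes that fall early correlate. The nearest genes were picked on these same arrays, so their likeness in course to the EGR gene is built in. Among the EGR genes r was 0.897 for Egr2 and Egr4, 0.798 for Egr1 and Egr2, 0.669 for Egr1 and Egr4, and 0.118 to 0.206 for pairs with Egr3. The 5 named genes nearest to Egr1 were Lpar6, a lysophosphatidic acid receptor (0.949), Dusp6 (0.944), the kinase gene Plk2 (0.925), the AP-1 gene Jun (0.897) and Tmem199 (0.870). Of these, Dusp6 was at 10.11, 9.10 and 8.03 at 60, 90 and 120 min and at 9.55 at 150 min, with the same low point as Egr1. Unlike that of Egr1, its rise in the second step was not called (0.76, limma adjusted p = 0.271). In the test of regain Dusp6 was called (1.11, limma adjusted p = 0.0042), where 24.0% of all features rose. Plk2 was at 8.17 at 120 min and 10.00 at 720 min, and its late level was not called different from its start (-0.32, limma adjusted p = 0.142).

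Egr2 lay nearest to the insulin receptor adaptor Irs2 (0.971), Cdc42ep1 (0.969), Gfod2 (0.968), the homeobox gene Hlx (0.957) and Fam110a (0.935). Irs2, like Egr2, had its lowest array at 180 min, 6.39, and was at 7.42 at 720 min. Egr4 lay nearest to Cep68 (0.965), Irs2 (0.943), Tex10 (0.943), Eva1c (0.942) and Kti12 (0.941). Of these 5, Irs2 rose in the test of regain (0.62, limma adjusted p = 0.0175), where 24.0% of all features rose. Eva1c was lower still (-0.27, limma adjusted p = 0.0378), where 22.3% fell, and Cep68, Tex10 and Kti12 did not pass (-0.04, -0.04 and -0.05). The genes nearest to Egr3, Olfr1390 (0.722), Hoxa13 (0.708), Anxa2 (0.702), Cyth2 (0.687) and Abca14 (0.682), reached lower values of r.

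**Figure D4:**
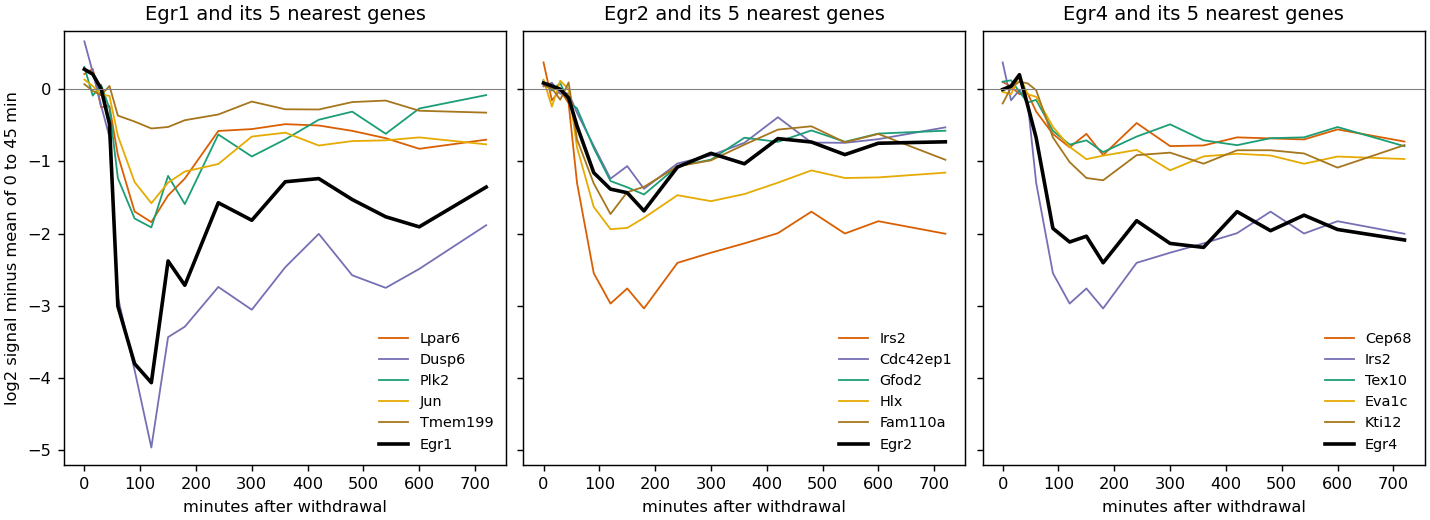
Log2 signal minus the 0 to 45 min mean (y axis) against minutes after withdrawal (x axis) for Egr1, Egr2 and Egr4 (black) and the 5 genes nearest to each by Pearson's r (coloured). Dusp6 has its low at 120 min, as Egr1 does, Irs2 dips further than Egr2, and the genes around Egr4 stay down from 90 min on apart from Irs2.

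The corepressors, which EGR proteins recruit and whose gene Nab2 is itself a reported EGR target, were not called in the first step and ended lower. Nab1 was at 10.02, 10.51, 10.17 and 10.32 from 0 to 45 min and at 10.44, 10.51 and 10.22 from 60 to 120 min, when Egr1 was at its lowest. It was at 10.03, 9.92 and 9.71 at 150, 180 and 240 min, at 9.20, 9.32 and 9.39 at 300, 360 and 420 min, and at 9.34, 9.54, 9.38 and 9.40 from 480 to 720 min. Nab1 fell in both middle steps, with changes of -0.50 over 150 to 240 min, against 60 to 120 min (limma adjusted p = 0.0159), and -0.58 over 300 to 420 min, against 150 to 240 min (adjusted p = 0.00484), where 3.5% and 5.88% of all features fell. Its change over 480 to 720 min, against 0 to 45 min, was -0.84 (SE 0.11, limma adjusted p = 1.0e-06), against 0.13 over 60 to 120 min (adjusted p = 0.653). Nab2 went through 7.04, 7.07 and 6.90 at 60, 90 and 120 min and was at 6.65, 6.44, 6.52 and 6.51 late, against 7.45, 7.47, 7.26 and 7.26 at the start. Its arrays from 60 to 120 min all lay below those from 0 to 45 min, as did those of 7.42% of all features. The change of -0.36 did not pass (limma adjusted p = 0.0956), nor did any later single step, and the change was -0.83 late (adjusted p = 4.2e-07). So 0 of 2 corepressors were called in the first step, where 1.94% of all features were. Both were lower late, where 25.9% were, with a median change of -0.84 against -0.0023 over all features. Neither turned upward with Egr1. In the test of regain Nab1 fell by 0.72 and Nab2 by 0.33 (limma adjusted p = 3.5e-06 and 0.0047), where 22.3% of features fell. The late Nab2 arrays lay within the 6.30 to 6.66 of Egr3, which cannot be separated from background. The part of background signal in the Nab2 changes was not tested.

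SRF drives EGR transcription with the ETS partners Elk1, Elk3 and Elk4. All 6 genes of the SRF list were on the array, and Srf, Elk3 and Mrtfb lay above the filter. Srf was at 10.34, 10.19 and 9.82 at 60, 90 and 120 min, against 10.52, 10.55, 10.71 and 10.61 from 0 to 45 min (-0.48, SE 0.12, limma adjusted p = 0.0282). Srf is one of the promoters printed above and, unlike Egr1 and Egr2, was not called in the test of regain (-0.11, adjusted p = 0.408). Elk3, a repressor that ERK turns into an activator, was not called in the first step (-0.31, adjusted p = 0.526) and was lower late (-1.13, adjusted p = 3.0e-05), with its lowest array, 9.08, at 300 min. In the first step 1 of the 3 fell, where 0.986% of all features did, and late 2 of 3 fell, where 25.9% did. Of the 3 below the filter 1 was lower late in the fit without it, where 2679 of 19854 features were.

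**Figure D5:**
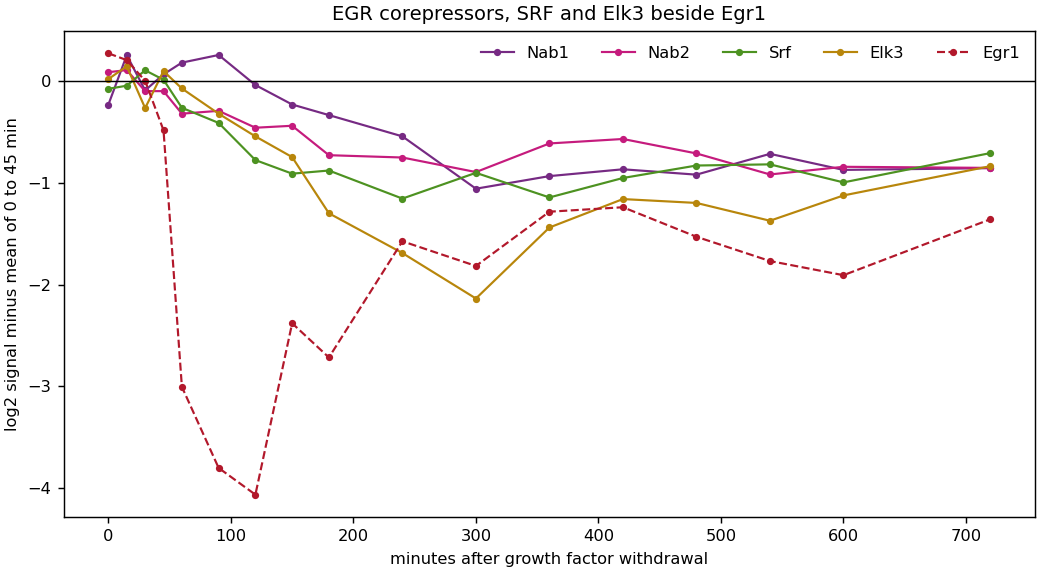
Log2 signal minus the 0 to 45 min mean (y axis) against minutes after growth factor withdrawal (x axis) for Nab1, Nab2, Srf and Elk3 (solid) and Egr1 (dashed), 1 point per array. Egr1 is lowest at 120 min, when Nab1 is within 0.10 of its start, and the 4 other genes end the series below their start.

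Genes of the ERK chain, which carries the growth factor signal to the EGR promoters, were not called in the first step. Of the 8 above the filter, among 11 on the array and 18 listed, 0 were called in the first step by limma, where 1.94% of all features were, with a median change of 0.06 over these 8 and -0.0019 over all features. Late, Araf, Map2k1 and Rps6ka5 rose, where 26.8% of all features did, and Hras, Grb2 and Rps6ka3 fell, where 25.9% did, among them Hras by -0.72 (adjusted p = 6.9e-06), Map2k1 by 0.41 (adjusted p = 0.0297) and Araf by 0.40 (adjusted p = 0.00451). Transcript levels do not report the activity of these kinases. Of the related zinc finger genes Sp1 and Zfp148, which bind overlapping GC-rich sites, Sp1 fell late by -0.25 (adjusted p = 0.0292).

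Genes reported as EGR targets in other cells moved in both directions. Of 23 listed, 20 were on the array and 10 above the filter. In the first step Cdk5r1, the activator of the kinase Cdk5, rose, where 0.956% of all features did, and Dusp4 fell. Cdk5r1 was at 11.50 ± 0.35 over 60 to 120 min, against 10.44 ± 0.15 over 0 to 45 min (SD, n = 3 and 4 times), a change of 1.06 (SE 0.15, limma adjusted p = 0.000304) opposite to that of Egr1, and it was still higher late (1.28, adjusted p = 1.5e-07). Dusp4, a nuclear phosphatase of ERK, changed by -1.11 (adjusted p = 0.00184) and late by -1.97 (adjusted p = 8.0e-09). Late, 3 of the 10 rose, with the microtubule gene Mapt at 1.67 (adjusted p = 2.5e-08), and 5 fell, where 26.8% of all features rose and 25.9% fell, with a median of -0.20 against -0.0023 over all features. Of the 10 below the filter, 1 was lower late in the fit without it, where 2679 of 19854 features were.

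Myelin genes that Egr2 activates in Schwann cells moved in both directions late. Of 9 listed, 5 were on the array and 3 above the filter, and 0 of these 3 were called by limma in the first step, where 1.94% of all features were. Late, where 26.8% of features rose and 25.9% fell, Cnp rose by 2.34 (SE 0.17, adjusted p = 4.6e-10) and Mbp by 1.40 (adjusted p = 3.0e-09), while Pmp22, the peripheral myelin gene, fell by 1.24 (adjusted p = 2.8e-07). Mbp had a mean of 5.97 over 0 to 45 min, under the filter of 6.41, and passed the filter only through its later arrays. Its late rise is therefore not independent of the filter and is not read as a result. Egr2 was lower than its start in the same late arrays. Cnp and Mbp are also genes of the oligodendrocyte lineage.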

How the data were processed

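RNA of the 17 cultures was amplified and biotin-labelled with the Illumina TotalPrep kit, per the labels' protocols. The deposited values are log2 signals, as read from their range of 5.14 to 15.47. Their normalization and background correction are not stated in the sources used here, and no further scaling was applied. Of 19949 probes, 18351 had 1 gene symbol and 1598 had none. Symbols were updated with the RefSeq table of GRCm38.p6 through gene identifiers (16482) or accessions (956, Egr2 among them), and 913 were kept. The brightest probe stood for a gene, and a filter at 6.41, the median probe mean, left 9940 features, among them all 4 EGR genes.

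Tests used limma 3.58.1 in R 4.3.3, with 1 mean per window, or a natural spline in square-root minutes (4 degrees of freedom), and Benjamini-Hochberg adjustment over all 9940 features with a threshold of 0.05. The procedure was tested on simulated data. Members, gene lists, windows and tests were chosen with earlier results of these data known. Genes named were the EGR genes, the 5 most correlated with each, the corepressors and up to 3 per list with the largest called changes in the first step and late. The number of arrays limits the precision. Alternatives covered scaling, filter, probe choice, variance model, array weights, curve, windows, test and each array left out.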

Additional observations from a re-analysis of the deposited data

Results flagged for a closer look

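Of 74 groups of 4 arrays tested, for the 37 genes named and the windows of 0 to 45 and 480 to 720 min, 4 held an array far from the other 3, close to the 1 in 20 that chance gives. Egr2 was at 7.34 at 540 min, against 7.50 to 7.52 on the other late arrays. Egr3 was at 6.64 at 600 min, where the others were at 6.45, and Cyth2, one of the genes nearest to Egr3, was at 7.08 on the same array, against 6.76 to 6.78. Eva1c was at 8.03 at 30 min, against 7.77 to 7.80 from 0 to 45 min.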

How the results depend on the processing

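Of 1039 recomputed values for 49 results on the EGR genes, 972 were counted as unchanged. Tested values had to keep their direction and their side of the threshold, and times and shares regained to stay within a set tolerance. Fits that left out an array of neither window compared are counted too, and their differences could not move. The falls of Egr1, Egr2 and Egr4 over 60 to 120 min and the lower late levels of Egr2 and Egr4 passed under every alternative run. Calls near the threshold did not. Egr1 over 300 to 420 min, against 150 to 240 min, passed with array weights (0.97) and ranged from 0.53 to 1.10 with 1 array left out. Egr2 in that step was 0.53 without the filter (adjusted p = 0.0679, limma) and 0.39 to 0.69 with 1 array left out. In the step before, Egr2 ranged from -0.57 to -0.13. Egr1 late was -0.96 with windows of 0 to 60, 90 to 180, 240 to 360 and 420 to 720 min. The regain of Egr2, 0.43, had an exact permutation p of 0.0762, and that test could not reach 0.05 in the other steps. Uncalled values near 0 changed sign: Egr3 late was 0.0063 with those windows and -0.0581 to 0.0406 with 1 array left out, -0.0652 to 0.0596 in the second step and -0.0842 to 0.0456 in the third. Egr4 regain was 0.0469 with array weights, 0.23 with those windows and -0.24 to 0.12 with 1 array left out, and Egr4 was -0.0786 to 0.21 in the third step and -0.0179 to 0.23 in the last.

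With 1 array left out, the midpoint of the fall of Egr1 was at 49.5 to 66.0 min, the low of Egr4 at 180 to 360 min, and the share regained 45.6% to 56.2% for Egr2 and 11.7% to 21.7% for Egr4. On the linear scale the shares were 27.5%, 39.4% and 9.02% for Egr1, Egr2 and Egr4. For Egr1 minus Egr4 the difference in regain ranged from 1.14 to 1.66 and the difference in fall from -1.36 to -0.85. Tests against Egr3 are counted here but not read as results. Their differences in regain ranged from 0.96 to 1.48 for Egr1 minus Egr3, 0.26 to 0.52 for Egr2 minus Egr3 and -0.0805 to 0.29 for Egr3 minus Egr4. Fewer arrays raise the smallest p these tests can give.

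Counts over all features moved more. With the filter at the 75th percentile, which tests fewer features and leaves out Egr2, Egr3 and Egr4, they were 82, 312, 490 and 519 in the 4 steps, 2721 late, 2519 for the regain and 3226 over the time course. Array weights gave 484 in the first step and 1655 in the third, and the other windows 1154 for the first. Leaving out 1 array gave 58 to 359, 226 to 736, 363 to 1295 and 151 to 1243 in the 4 steps, against 193, 667, 1052 and 908 with all arrays, and the cause was not tested. Moves by over 1.5 times came without 60, 90 or 120 min in the first step (359, 74 and 58), without 60, 90, 180 or 240 min in the second (226, 367, 423 and 266), without 150, 180, 360 or 420 min in the third (363, 525, 523 and 425) and without 300, 360 or 720 min in the last (151, 322 and 386). No detection p-values accompany the signals, which limits what can be said of Egr3 and of the lows of Egr2 and Egr4.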
